A study of Drosophila melanogaster with 9 samples.

Results

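Cuticle protein genes were followed through 6 lists of H3K27me3 peaks from larvae of Drosophila melanogaster. The set was every protein-coding gene of Release 6 on the arms X, 2L, 2R, 3L and 3R whose symbol begins with Cpr, Lcp or Ccp followed by a digit. The rule itself uses no peak, though it was set with earlier results of these data known. The rule found 92 of 13842 protein-coding genes: 70 Cpr, 15 Lcp and 7 Ccp genes, with 45 on 3L, 26 on 2R, 12 on 3R, 5 on 2L and 4 on X.

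Cuticle proteins are secreted by the epidermis and bind chitin to form the exoskeleton, which is replaced at every moult. Most belong to the family that carries the Rebers and Riddiford chitin-binding consensus, for which the Cpr genes are named, and the Lcp genes are named as larval cuticle proteins. Different members are switched on at different moults and in different parts of the body wall, and tissues other than epidermis and trachea have little use for them. H3K27me3 is a histone modification made by the Polycomb complex PRC2 over silent genes, often across wide domains around developmental regulators.

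The design has 3 groups of larvae of the third instar, each with 2 immunoprecipitated libraries: wild-type males, wild-type females, and males of the genotype roX1[ex6]roX2[9-4], which lack both roX RNAs of the male dosage compensation complex. All were raised at 25 °C. The labels name no wild-type strain and leave the origin of the replicates unstated, so p-values measure only the spread between these libraries, which may be technical. The chromatin came from ground larval tissue, so a mark in few cells and a weak mark in many cannot be told apart.

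There were 5406 and 4784 peaks in the wild-type male lists, 6327 and 6189 in roX knockout males, and 8896 and 10619 in females. Peaks on Y summed to 166 to 301 kb in the 4 male libraries and to 25.2 and 30.4 kb in the female ones. The lists carry no read counts, so depth is unknown and a gene with no peak was not detected at that depth. The value used for a gene is its covered percent, the share of its body (from start to end in the annotation) under merged peaks. At 50% or more a gene is called marked. Loss of the mark means marked in both reference libraries and in neither library of the group set against them, and gain means the reverse. With 2 libraries a group, 0.33 is the lowest two-sided p that exact permutation allows. Peaks with −log10 q of 3 or more, by the authors' values, are called strong. Cuticle genes are short, with a median body of 0.884 kb against 2.15 kb for all protein-coding genes. The median peak of a library was 0.857 to 1.04 kb wide, so that 1 typical peak can cover a cuticle gene whole.

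The cuticle genes fell into a small block that was marked in every library and a majority with little or no mark. Of the 92 genes, 47 (51.1%) had no peak over any base in any of the 6 libraries, against 64.2% of all protein-coding genes. At the other end, 7 (7.61%) were marked in all 6 libraries, against 2.20% of all genes, and these were the 7 Ccp84A genes. Between these extremes, 21 genes (22.8%) were covered in exactly 1 library, against 13.1% of all genes. The number marked was 10 and 11 in wild-type males, 10 and 11 in roX knockout males, and 15 and 21 in females. Without the Ccp84A genes it was 3 and 4, 3 and 4, and 8 and 14 of 85, or 3.53% and 4.71%, 3.53% and 4.71%, and 9.41% and 16.5%. Of all protein-coding genes 5.25% and 5.15%, 4.04% and 3.08%, and 6.75% and 8.55% were marked. The median covered percent of the 92 genes was 0 in each library, as it was for all genes.

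**Figure D1:**
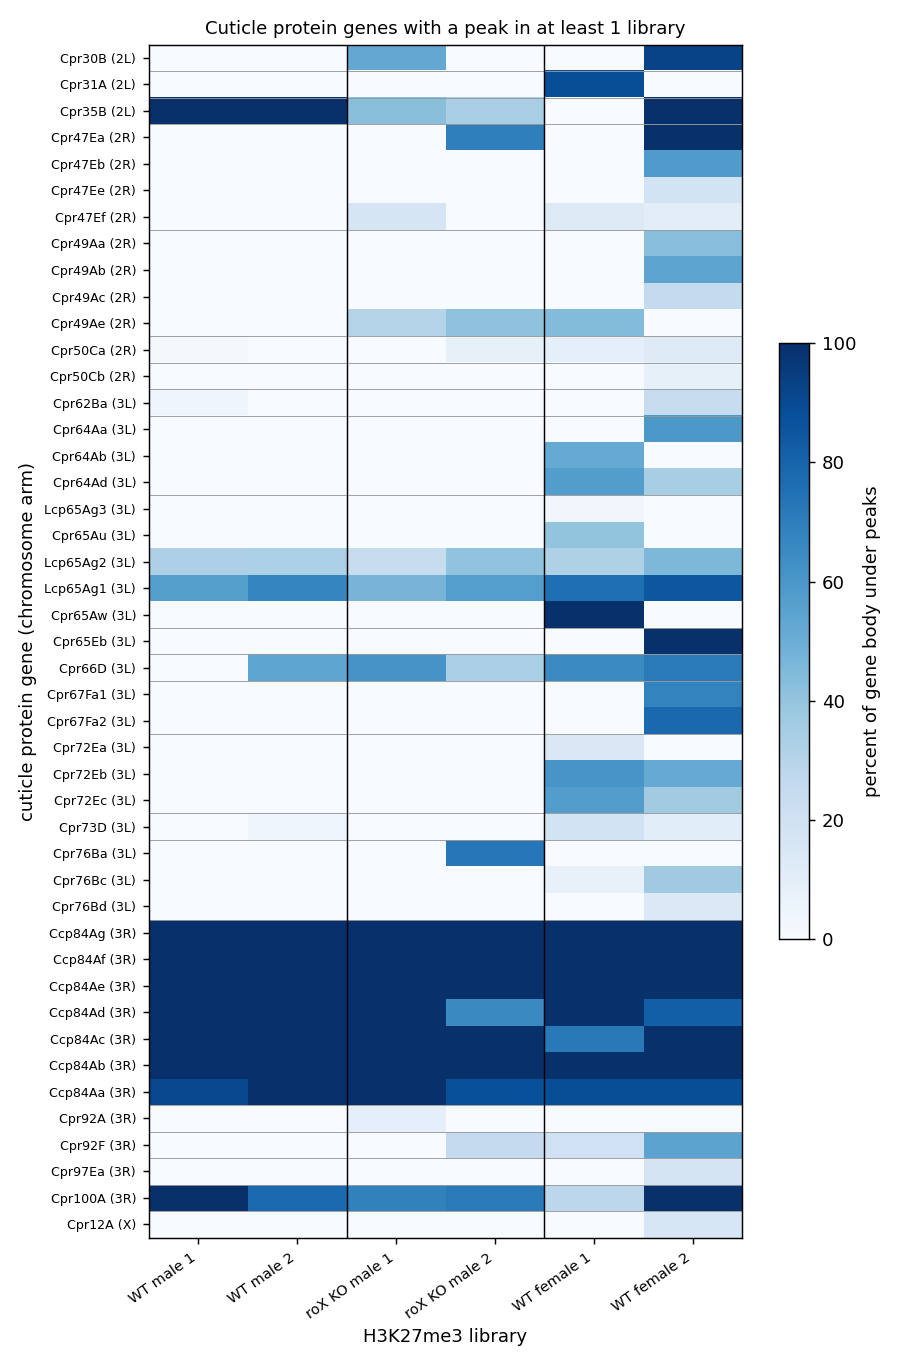
Percent of the gene body under H3K27me3 peaks (colour) for the 45 cuticle protein genes with cover in at least 1 library (rows, ordered by position) in the 6 libraries (columns). The Ccp84A rows are dark in all 6 columns, Cpr35B is dark in both wild-type male columns and paler in both knockout columns, and most other cover lies in the female columns.

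By position, 66 of the genes lay in 12 clusters of at least 3 genes with gaps of at most 20 kb, and 26 lay alone or in pairs. Clusters are named here by the map position in their gene symbols. They ranged from 3 genes in 4.70 kb (67F) to 17 genes in 31.2 kb (65A). No base was under a peak in either library of the group in 9 of the 12 clusters in wild-type males, in 6 in roX knockout males and in 2 in females. The 2 without cover in any library were 78C (3 genes) and the cluster of Lcp1, Lcp2, Lcp3 and Lcp4 on 2R, which code for abundant cuticle proteins of larvae of this stage. Of the 22 nearest genes on either side of the 11 clusters other than 84A, none was marked in a male library and 1 in each female library. The 59 cuticle genes inside those clusters had 1 marked in each wild-type male list, 0 and 3 in the knockout and 6 and 9 in females. The marked neighbour was Prdm13, beside 65A.

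**Figure D2:**
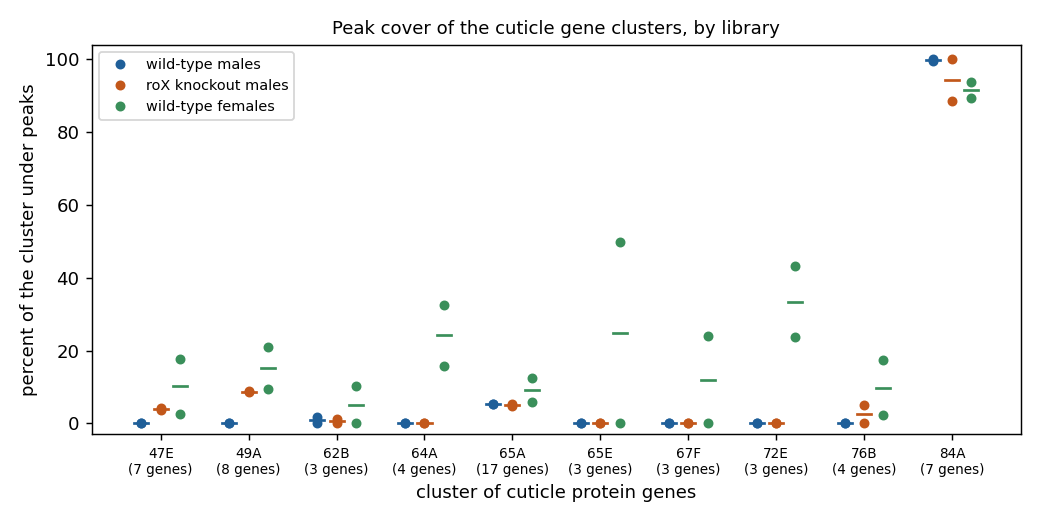
Percent of each cluster, from the start of its first to the end of its last cuticle gene, under peaks (y axis), for the 10 clusters with cover in at least 1 library (x axis). Points are libraries and short bars are means of 2. The 84A cluster lies between 88.6% and 100% in all libraries, and no other cluster exceeds 49.8%.

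The 84A cluster lies inside the Antennapedia complex of Hox genes. Its 7 genes, Ccp84Ag to Ccp84Aa, span 18.2 kb between the Hox genes lab and pb (3R, 6686728 to 6704903, dm6). Peaks covered 99.6% and 100% of it in wild-type males, 100% and 88.6% in roX knockout males, and 93.8% and 89.5% in females. All 7 genes were marked in every library when all peaks counted. With strong peaks alone, all 7 were marked in wild-type males and knockout replicate 1, 4 in knockout replicate 2, and 4 and 6 in females. With all peaks, Ccp84Ag, Ccp84Af, Ccp84Ae and Ccp84Ab were covered over 100% of the body in all 6. Ccp84Ad (3R, 6692732 to 6693527) was at 100% in both wild-type males, 100% and 65.6% in roX knockout males and 100% and 81.9% in females, the lowest mean of the cluster.

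In wild-type males and in knockout replicate 1 a single peak of 43.9 to 44.5 kb covered the cluster and began 25.6 to 25.8 kb before it, so that lab lay under the same peak. Knockout replicate 2 had 3 peaks over the cluster, the widest 31.1 kb and again over lab. Female replicates 1 and 2 had 2 and 3 peaks there, none wider than 11.1 kb, and the first began only 3.40 and 3.44 kb before the cluster. The bases of the cluster left bare summed to 0.075 kb or less in wild-type males and knockout replicate 1, and to 1.12 to 2.08 kb in the other libraries. By their −log10 q, the peak over Ccp84Ad ranked above 94.1% to 98.5% of its own list in the 6 libraries.

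The neighbours shared this state. Edg84A, which codes for a pupal cuticle protein under ecdysone control, lies 1.57 kb before the cluster and was at 100% in all 6 libraries. lab was at 100% ± 0 (SD, n = 2) in wild-type males, 98.0% ± 2.81 in roX knockout males and 92.3% ± 2.70 in females, and pb at 98.2% ± 2.51, 88.8% ± 7.41 and 83.0% ± 1.01. For the 84A cluster the group means were 99.8% ± 0.292, 94.3% ± 8.08 and 91.7% ± 3.08. The knockout and wild-type male libraries overlapped (exact permutation p = 1, two-sided). The female libraries lay below the wild-type male ones with 5.75 percentage points between the nearest libraries, while replicates lay up to 4.35 apart (exact permutation p = 0.33). In the group means, cover of the cluster fell by 8.14 points from wild-type males to females. Without knockout replicate 2 the mean of the knockout was 0.206 points above that of wild-type males whereas with both replicates it stood at −5.51 points. These differences depended on which peaks counted: with strong peaks alone cover of the cluster was 99.6% and 100% in wild-type males, 100% and 35.9% in the knockout and 42.4% and 71.4% in females. The mean differences from wild-type males were then −31.8 points in the knockout and −42.9 in females, and with gaps of up to 1 kb joined they were −2.92 and −3.13.

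**Figure D3:**
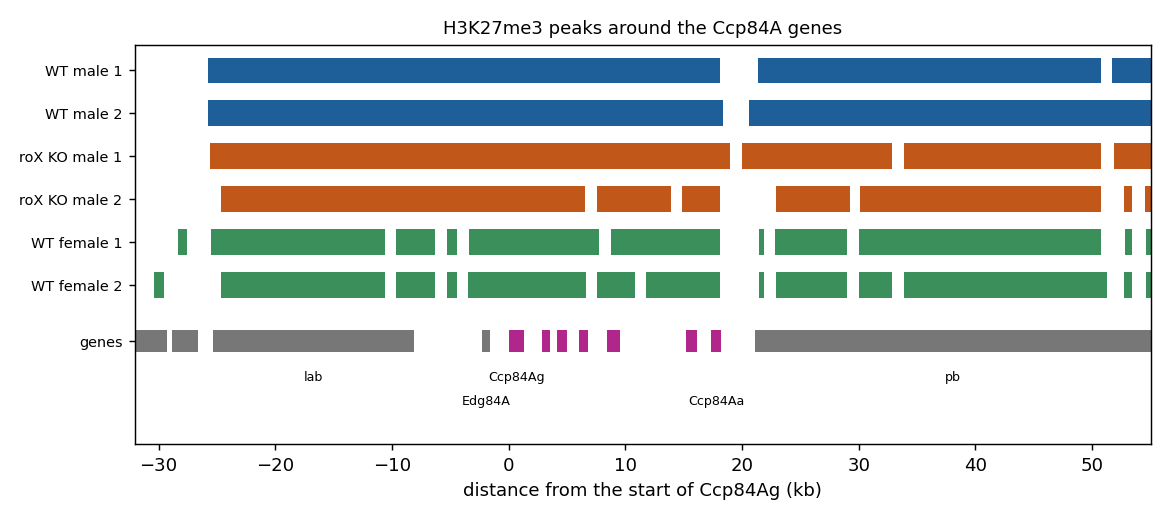
H3K27me3 peaks (bars, 1 row per library) around the 7 Ccp84A genes (purple) and neighbouring genes (grey), against distance from the start of Ccp84Ag in kb. The domain over lab and the cuticle genes is 1 peak in the wild-type male rows and knockout replicate 1. It is broken into shorter peaks in both female libraries and, over the cuticle genes, in knockout replicate 2.

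Outside 84A the gene that differed most between knockout and wild-type males was Cpr35B (2L, 14424315 to 14425189). It was covered over 100% of its body in wild-type male replicates 1 and 2, over 42.4% and 33.6% in the knockout libraries, and over 0% and 100% in the female libraries. It lost the mark in the knockout, and was 62.0 percentage points lower there (SE 3.95, limma adjusted p = 0.0398). Both wild-type male values sat at the ceiling of 100%, where variation between replicates cannot show. The male groups did not overlap, and the female replicates stood at opposite ends when all peaks counted. With strong peaks alone Cpr35B was at 100% in both wild-type male libraries and at 0% in the knockout and female ones. The limma call was lost without the filter on uncovered genes (adjusted p = 0.242), with all 6 libraries in the fit (adjusted p = 0.636), with the replicate block (adjusted p = 0.249), with the body extended by 250 bases (adjusted p = 0.137) and without either wild-type male replicate (adjusted p = 0.173 and 0.166). The loss call itself ended when gaps of up to 1 kb between peaks were joined, where cover fell by 46.7 points (adjusted p = 0.205).

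Cpr35B sits in the interval between elB and noc, a pair of zinc finger genes of appendage and tracheal patterning. It shares that interval with Pburs, which codes for a subunit of the tanning hormone bursicon. In wild-type males its body lay under peaks of 24.7 and 51.6 kb, with −log10 q above that of 95.1% and 93.0% of their own lists. In the knockout the peaks that touched it were 1.05 and 0.294 kb wide, above 55.5% and 0.113% of theirs. Peaks covered 90.1% and 94.3% of the 81.3 kb from the end of elB to the start of noc (2L, 14409550 to 14490858) in wild-type males, in 6 and 3 pieces. In the knockout they covered 62.5% and 42.8%, in 16 and 21 pieces, and in females 61.6% and 69.1%, in 14 and 16 pieces. This interval was chosen after the values of Cpr35B were seen. Within it Pburs, 6.98 kb from Cpr35B, was at 100% in all 6 libraries. CG15283, 25.1 kb away on the other side, was at 100% in both wild-type male libraries. It was at 100% and 53.4% in the knockout and at 0% and 71.6% in females.

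**Figure D4:**
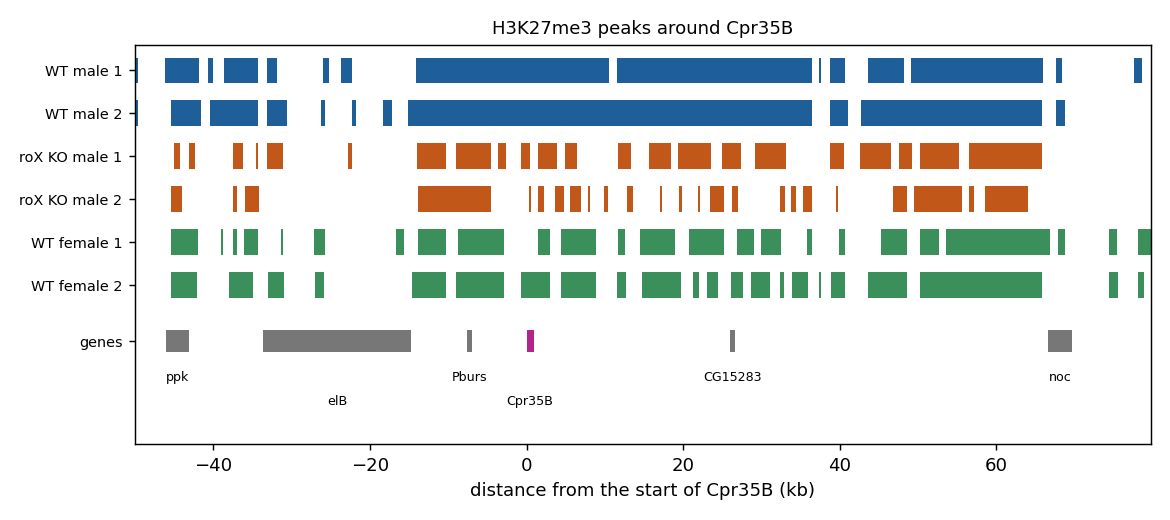
H3K27me3 peaks (bars, 1 row per library) around Cpr35B (purple) and neighbouring genes (grey), against distance from the start of Cpr35B in kb. Both wild-type male rows show long unbroken peaks over Cpr35B, and the knockout and female rows show many short ones.

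Apart from Cpr35B, no cuticle gene changed its call between knockout and wild-type males. Of the 10 cuticle genes eligible for loss, those with a mark in both reference libraries, 1 lost the mark, against 26.4% of all 609 such genes. Of the 81 marked in neither wild-type male library 0 gained it, against 0.0769% of all such genes. By limma 1 of 22 tested cuticle genes was lower, against 3.36% of all genes tested, and 0 were higher, against 0.435%. At an unadjusted p under 0.05 limma counted 1 lower and 1 higher, and the share of all genes at that cut was not counted. The libraries of the 2 groups did not overlap, downwards, for 2 of 22 (Cpr35B and Cpr100A), against 26.7% of all genes with cover, and upwards for 1 of 22 (Cpr49Ae), against 9.81%. With 10 genes eligible for loss, 7 of them in the 84A cluster and so not independent, the share of losses is known only loosely. Without knockout replicate 2 there were 2 losses and 1 gain, and without knockout replicate 1 there were 1 loss and 2 gains. Leaving out a library loosens the marking rule for every gene, and the share of all genes was not counted there.

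Cpr100A (3R, 30867521 to 30869184) lies 13.1 kb from tll, a gap gene of the embryo's ends. It was covered over 100% and 77.3% in wild-type males, 68.5% and 71.3% in roX knockout males, and 27.9% and 100% in females. Both knockout libraries were below both wild-type male ones, and cover fell by 18.8 points on average with an SE of 10.1 (limma adjusted p = 0.565), which did not pass the test. The female libraries spanned the whole range. It was covered in every library and marked in all except female replicate 1.

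Cpr49Ae (2R, 12402216 to 12405108) showed the opposite order. It was bare in wild-type males, was covered over 30.2% and 41.0% in roX knockout males, and over 44.1% and 0% in females. The difference between the male groups was 35.6 points (SE 4.80, limma adjusted p = 0.112) and did not pass the test. The peaks were narrow, 1.20 and 1.35 kb in the knockout, and their −log10 q of 1.83 and 1.54 exceeded that of 52.0% and 32.9% of their own lists. Across the whole 49A cluster (8 cuticle genes and 7 others in 38.5 kb, 2R, 12376626 to 12415170) cover was 0% in wild-type male replicates 1 and 2, 8.70% and 8.83% in the knockout, and 9.36% and 21.0% in females. CG30048, a gene of unnamed function inside the cluster, was likewise at 0% in wild-type males and at 40.6% and 15.3% in the knockout. The 47E cluster (7 genes, 2R, 11251751 to 11278445) was likewise bare in wild-type males, with 3.59% and 4.27% under peaks in the knockout and 2.71% and 17.7% in females. For both clusters the knockout and wild-type males did not overlap (exact permutation p = 0.33). Counting strong peaks alone, neither cluster had any cover in any library.

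Summed over all 92 gene bodies, cover was 6.38% ± 0.640 (SD, n = 2) in wild-type males and 7.87% ± 0.666 in roX knockout males, a difference of 1.49 points. The groups did not overlap, but the gap of 0.562 points was smaller than the 0.942 points between replicates (exact permutation p = 0.33). Over all protein-coding genes the same sum went from 7.0% ± 0.158 to 5.58% ± 0.780. The difference between these 2 changes was not tested. The sign for the cuticle genes depended on weak peaks: with strong peaks alone the knockout was lower than wild-type males, at −1.77 points. Of the peaks that touched cuticle genes outside 84A, 1 of 5 and 2 of 5 were strong in wild-type males, and 0 of 10, 9, 20 and 34 in the knockout and female libraries. Among all peaks of those 4 libraries 8.91% to 15% were strong.

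In 65A, the largest cluster (17 genes, 3L, 6130386 to 6161589), 12 genes had no cover in any library, yet 1 narrow peak recurred in all 6. It ran from inside Lcp65Ag2 across the 1103 bases between the genes into Lcp65Ag1, was 1.52 to 1.87 kb wide, and its start and end varied by 130 and 219 bases among libraries. Lcp65Ag1 (3L, 6134697 to 6135274) was covered over 56.4% and 67.0% in wild-type males, 47.1% and 56.7% in roX knockout males, and 75.8% and 84.9% in females. Lcp65Ag2 (3L, 6132990 to 6133593) was at 32.5% and 33.1%, 24.0% and 40.6%, and 32.3% and 45.5%. For Lcp65Ag1 both female libraries lay above all 4 male ones, by 18.7 points over wild-type males (SE 6.17, limma adjusted p = 0.280) and 28.5 points over roX knockout males (SE 5.93, limma adjusted p = 0.184). Neither difference passed the test. Lcp65Ag3, the gene beyond Lcp65Ag2, had 0% in 5 libraries and 3.31% in female replicate 1. The authors' −log10 q for the shared peak was 1.73 to 2.88. Its genes are recent duplicates whose copies can share reads, so cover there is uncertain. The same holds for Lcp65Ab1 with Lcp65Ab2 and Cpr65Ax1 with Cpr65Ax2, all at 0 throughout, and for Cpr67Fa1 with Cpr67Fa2.

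Cpr66D (3L, 8640439 to 8643584), a single gene, was covered over 0% and 53.8% in wild-type males, 61.0% and 33.2% in roX knockout males, and 64.9% and 71.3% in females. The males of both genotypes overlapped, and the females lay above all of them. The difference of 41.2 points between females and wild-type males had an SE of 23.5 (limma adjusted p = 0.477). Its neighbour CG13305 was covered in all 6 libraries, at 46.6% to 94.3%.

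When all peaks counted, females had peaks over more cuticle genes than males of either genotype. With any cover there were 26 and 36 of 92 in females, 13 in each list from wild-type males, and 16 and 17 in roX knockout males. Over all protein-coding genes the same shares were 23.7% and 28.1%, 11.6% and 11.3%, and 12.6% and 9.83%, also highest in females. Of the 85 genes outside 84A, 22.4% and 34.1% were covered in females. With every list shortened to the same total length, 11 and 10 of the 85 were covered in females. There were then 2 in each list from wild-type males, and 6 and 10 in roX knockout males. With strong peaks alone, 0 were covered in each female and each knockout library, and 1 and 2 in wild-type males. Summed cover of the 92 bodies was 16.5% ± 5.0 (SD, n = 2) in females, 10.1 points above wild-type males. That difference was 3.45 points with every list shortened to the same total length and 6.55 points without female replicate 2. The groups lay 6.09 points apart, and the female replicates 7.07 (exact permutation p = 0.33). Over all genes the sum was 9.65% ± 1.17 in females against 7.0% ± 0.158 in wild-type males. With strong peaks alone the sign turned, and females were lower than wild-type males, at −2.09 points.

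**Figure D5:**
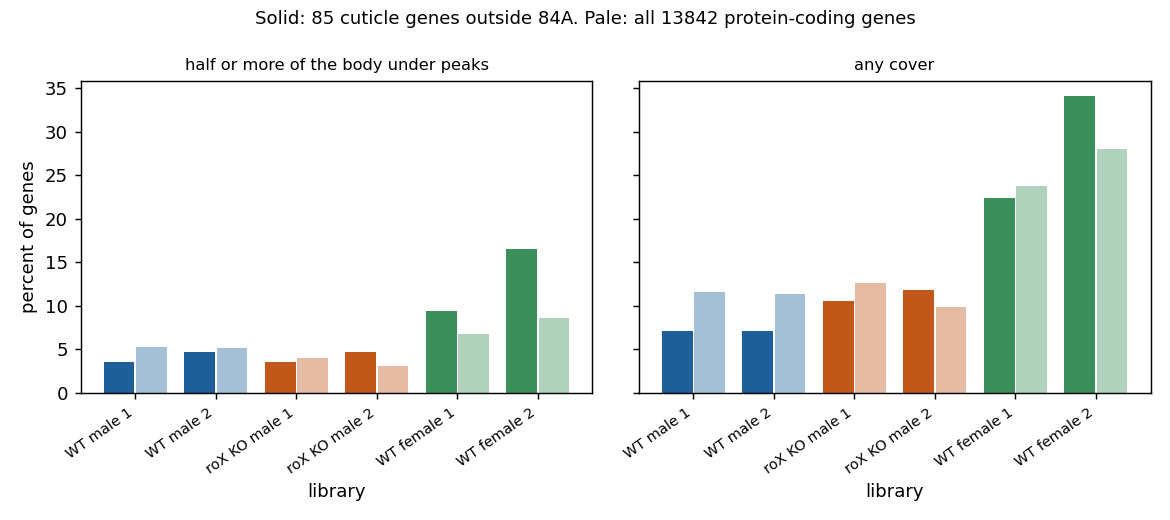
Percent of genes marked (left) and with any cover (right) in each library, for the 85 cuticle protein genes outside 84A (solid bars) and for all 13842 protein-coding genes (pale bars). Both kinds of bar are highest in the female libraries. In female replicate 2, 16.5% of the cuticle genes and 8.55% of all genes were marked.

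The female replicates shared only part of these genes. Outside 84A 19 cuticle genes were covered in female replicate 1 and 29 in replicate 2, and 12 were covered in both, 63.2% of the first and 41.4% of the second. Over all genes these shares were 77.2% and 65.3%. Cover in female replicate 2 alone was found for 13 cuticle genes (14.1%, against 7.42% of all genes), among them Cpr65Eb (100%), Cpr67Fa2 (78.2%), Cpr67Fa1 (67.7%), Cpr64Aa (59.7%) and Cpr47Eb (58.0%). In female replicate 1 alone there were 6 (6.52%, against 4.13%), led by Cpr65Aw (100%) and Cpr31A (88.4%). Covered in both female libraries and in no male library were Cpr64Ad, Cpr72Eb, Cpr72Ec and Cpr76Bc, 4.35% of the cuticle genes against 6.02% of all genes.

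Cpr72Eb (3L, 16364899 to 16365707) was the only cuticle gene to gain the mark in females. It had no peak in the 4 male libraries and was covered over 60.7% and 51.4% in females, 56.1 points higher than in wild-type males (SE 4.20, limma adjusted p = 0.0464) and than in roX knockout males (SE 4.29, limma adjusted p = 0.0475). The peaks there, 1.51 and 1.1 kb wide, ran into the next gene, Cpr72Ec (3L, 16365894 to 16367340), at 57.4% and 36.2%, which did not pass the test (limma adjusted p = 0.151 and 0.167). Cpr72Ea, the other gene of the cluster, was at 14.2% and 0% in females. The 4 male values of Cpr72Eb sat at the floor of 0%, where variation between replicates cannot show. The −log10 q of the peaks over the gene in females was 1.54 and 1.31, above 42.9% and 21.7% of their own lists. Without the filter on uncovered genes its adjusted p was 0.151 and 0.172, and no strong peak covered it. Without either male replicate of a comparison the adjusted p was 0.349 to 0.462, and the gain ended with the mark set at 80% of the body. With lists of equal total length its cover was 0% in both female libraries, so the gain and the limma call ended there too.

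In all, 1 of the 81 cuticle genes marked in neither wild-type male library gained the mark in females, against 1.09% of all such genes, and 0 of 10 lost it, against 9.85%. Against roX knockout males 1 of 79 gained it, against 1.76%, and 0 of 8 lost it, against 3.41%. Both comparisons use the same female libraries, and the knockout and female comparisons with wild-type males share the latter. By limma 1 of 43 was higher than in wild-type males, against 2.78% of all genes tested, and 1 of 45 higher than in roX knockout males, against 3.1%. None was lower in either, against 1.04% and 0.145%. At an unadjusted p under 0.05 none was lower and 5 were higher in each, and the share of all genes at that cut was not counted. Females lay above wild-type males without overlap for 10 of 43 cuticle genes and below for 1 (Ccp84Aa), against 33.1% and 9.05% of all genes. Against roX knockout males it was 8 and 0 of 45, against 35.9% and 4.13%. With every list shortened to the same total length, the cuticle genes marked outside 84A numbered 3 and 4 in females, 2 in each list from wild-type males, and 1 and 4 in roX knockout males. Without female replicate 1 the count of gains over wild-type males was 10, and without replicate 2 it was 6. Without wild-type male replicate 2 it was 2. Over knockout males the counts were 9 and 6 without female replicates 1 and 2, and 2 without either knockout replicate. Leaving out a library loosens the rule for every gene. The share of all genes was not counted there, so these counts say nothing particular to cuticle genes.

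The remaining cover over cuticle genes came as single marked libraries or partial cover. Cpr30B (2L) was at 0% in wild-type males, 52.5% in knockout replicate 1 and 92.2% in female replicate 2, and at 0% in the other libraries. Cpr47Ea, the highest gene of the 47E cluster, was at 69.2% in knockout replicate 2 and 100% in female replicate 2, and bare elsewhere. Cpr76Ba, the highest of 76B, reached 72.3% in knockout replicate 2 and did so in no other library. For these 3 genes the replicates of a group stood apart, with a mark in 1 and none in the other. Cpr92F (3R) was bare in wild-type males, with 0% and 25.1% in roX knockout males, and 20.2% and 54.7% in females. Cpr64Ad, the highest of the 64A cluster, was at 57.3% and 34.3% in females and 0% in all males, and Cpr62Ba, the highest of 62B, averaged only 4.75% over the 6 libraries.

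Among cuticle genes without cover, the median distance to a peak was smaller in the knockout and in females than in wild-type males. The median distance from such a gene to the nearest peak was 26.5 and 34.5 kb in wild-type males, 13.5 and 12.5 kb in roX knockout males, and 5.12 and 4.08 kb in females. For all genes without cover it was 30.9 and 31.7 kb, 23.7 and 29.9 kb, and 9.49 and 7.74 kb. The cuticle genes without cover numbered 79 and 79, 76 and 75, and 66 and 56, so the genes compared differ between libraries. Genes of a cluster can share their nearest peak and are not independent. These distances were not tested.

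The 4 cuticle genes on X, Cpr5C, Cpr11A, Cpr11B and Cpr12A, were at 0% in every library except for Cpr12A, at 16.0% in female replicate 2. They therefore offered no mark that could be lost on X.

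Other genes of cuticle formation were taken from 5 lists by function. Of 15 other structural cuticle protein genes, 1 was marked in each male library (Edg84A) and 2 and 3 in females. Of 25 Tweedle genes, a family of body-shape cuticle proteins, the wild-type male lists marked 1 and 0, with 2 and 1 in roX knockout males and 1 and 7 in females. None of these 40 genes lost or gained the mark in any comparison. In each comparison only 1 of them (Edg84A) was eligible for loss, so losses could hardly be seen. Of all genes eligible for gain, 0.0769% gained the mark in the knockout over wild-type males. In females 1.09% gained it over wild-type males and 1.76% over knockout males. Of 32 genes for chitin synthesis, assembly and modification, the wild-type male lists marked 2 and 3, with 1 and 0 in roX knockout males, and 3 and 2 in females. Idgf1, a chitinase-like growth factor gene (2L, 16445278 to 16446793), was at 100% in wild-type male replicates 1 and 2, 40.4% and 22.1% in roX knockout males and 89.8% and 100% in females, and lost the mark in the knockout. Its cover fell by 68.7 points from wild-type to roX knockout males (limma adjusted p = 0.0979), which did not pass the test. Its neighbour Idgf3 went from 95.9% ± 5.80 (SD, n = 2) to 51.0% ± 18.7, and Idgf2 from 60.4% ± 16.7 to 18.4% ± 26.0.

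Of 15 tanning and pigment genes both wild-type male lists and both female lists marked 1, and the knockout lists marked 0. It was amd, a gene of the dopa decarboxylase family needed for cuticle (2L, 19110154 to 19114110), at 79.8% and 62.2% in wild-type males, 39.7% and 0% in roX knockout males and 90.1% and 65.9% in females (limma adjusted p = 0.403 for knockout against wild-type males). Of 16 ecdysone response and moulting regulators both wild-type male lists marked 3 and the other 4 lists marked 2 each. These were vvl, rib and grh, and grh, an epidermal barrier factor, lost the mark in roX knockout males and in females. In all, 3 of the 7 listed genes eligible for loss between wild-type and roX knockout males lost the mark (Idgf1, amd and grh), against 26.4% of all such genes. None of these 3 passed the limma test in that comparison. The median covered percent of each of these lists was 0 in wild-type males.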

How the data were processed

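H3K27me3 peak lists of 6 libraries, in 3 groups of 2 by the sample titles, were analysed, one list per library. The 3 inputs were not analysed here. Tools credited to the submitters' processing notes were deepTools 3.5.1, Picard, SAMtools 1.13, Bowtie2 2.4.5 and Trimmomatic 0.39, with build dm6. Which caller made the lists, how, and with what control is not given in the sources used here. For every peak the authors deposited a score, a fold (a ratio to background), and p and q values as −log10. No deposited −log10 q is below 1. Folds and q values served only to describe, rank or filter peaks within a list. As no read counts come with the lists, precision from counting is unknown.

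Gene positions came from a RefSeq table of Release 6, whose coordinates dm6 uses. It holds no strand and no sequence, so none is shown. Merged peaks were intersected with gene bodies (Python 3.11.15), and limma 3.58.1 in R 4.3.3 was fitted to the covered percent of all genes with cover in at least 1 of a comparison's 4 libraries, with Benjamini-Hochberg adjustment over all of them. A bounded percent fits such a model loosely, so the marking rule stands beside it. Permutation tests were exact and two-sided. The arithmetic and calls were tested on simulated data with little noise, in which the changed genes lost all cover. Partial losses, gains and wide spread between replicates were not simulated, so that test cannot speak for calls of those kinds.

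The 92 genes, the 5 other lists (111 symbols, 106 found) and the tests were chosen with earlier results of these data known. The rule for named genes took those that lost or gained the mark, those marked in all libraries, the highest and lowest of each cluster, and listed genes marked in both libraries of a group. Other names were chosen after their values were seen. Alternatives were strong peaks alone, fold of 1.5 or more, joined gaps, lists cut to equal length, marks at 20%, 80% or any overlap, bodies extended by 250 bases, clusters joined over 50 kb, limma without its filter, with a replicate block or with 6 libraries, and each replicate left out.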

Additional observations from a re-analysis of the deposited data

How the results depend on the processing

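Of the values that answer a comparison, 452 recomputed ones kept their direction (counts: stayed within 1.5 times), though some changed much in size. Another 94 counts or differences went beyond that or to or from 0, and 18 changed sign. The 452 include values of 0 that stayed at 0 and so have no direction. Joining over 50 kb gave the same clusters as 20 kb. Folds of 1.5 or more left the number of marked cuticle genes unchanged in every library. The 452 are therefore no measure of how firm the results are. Between knockout and wild-type males, losses fell to 0 with gaps joined, with a mark at 20% or at any overlap, and by limma with the replicate block. Gains were 1 with a mark at 20% or any overlap. Genes lower by limma were 0 with no filter, the replicate block, 6 libraries or joined gaps. With strong peaks alone summed cover differed by −1.77 points over all cuticle genes and −0.920 outside 84A, and clusters 47E, 49A, 62B, 65A and 76B differed by 0. With lists of equal length 62B differed by 0.543 and 65A by 5.12 points.

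Between females and wild-type males, strong peaks alone gave 2 losses (Cpr35B and Ccp84Ac), 0 gains, 2 genes lower and 0 higher by limma, summed cover at −2.09 points (−0.920 outside 84A) and 0 for clusters 47E, 49A, 62B, 64A, 65A, 65E, 67F, 72E and 76B. Gains were 2 at equal length (Lcp65Ag1 and Cpr66D, not Cpr72Eb), 2 with extended bodies (Cpr66D and Cpr72Eb), 4 at 20%, 0 at 80%, 6 at any overlap and 0 by limma with the replicate block. Genes higher by limma were 0 with no filter or the replicate block and 2 at equal length, where 64A and 67F differed by 0. Between females and knockout males, strong peaks alone gave 0 gains, 0 higher by limma, summed cover at −0.317 points (0 outside 84A) and 0 for the same 9 clusters. The 1 gain at equal length was Cpr66D in place of Cpr72Eb. Gains were 3 at 20%, 0 at 80%, 5 at any overlap and 0 by limma with the replicate block. Genes higher by limma were 0 with no filter, the replicate block or equal length, where 47E was at −1.72, 49A at −1.98 and 64A and 67F at 0 points.

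Leaving out each replicate in turn, knockout against wild-type males ranged over 1 to 2 losses and 0 to 2 gains. Shares of all genes were not counted for these ranges. In points the clusters ranged over −1.36 to 0.543 for 62B, −0.441 to 0.0593 for 65A, 0 to 5.16 for 76B and −11.2 to 0.206 for 84A. Females against wild-type males ranged over 0 to 2 losses, 1 to 10 gains, 0 to 2 lower and 0 to 22 higher, and −0.950 to 9.29 for 62B, 0 to 49.8 for 65E and 0 to 24.0 for 67F. Females against knockout males ranged over 0 to 1 losses, 2 to 9 gains, 0 to 1 lower and 0 to 19 higher, and −1.22 to 13.8 for 47E, −0.543 to 9.70 for 62B, 0 to 49.8 for 65E, 0 to 24.0 for 67F, −0.345 to 14.8 for 76B and −8.34 to 3.09 for 84A. The causes were not tested.

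The replicate numbers share no source in the labels, and deviations of same-numbered libraries correlated at −0.0381, −0.00662 and 0.0207 in the 3 comparisons, so they were not treated as pairs. With the block the adjusted p of Cpr35B was 0.249 and that of Cpr72Eb 0.339 and 0.328. With strong peaks alone or at equal length Cpr72Eb had no cover in any library and so no fit. Depth is unknown, so a missing weak peak in males was not detected rather than shown to be absent.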

Other observations

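Pseudogenes of the cuticle family were looked at apart from the 92 genes. Lcp1Psi and Lcp65APsi had no cover in any of the 6 libraries. Beside Cpr66D, CG13305 was covered in every library, at 54.0% and 55% in wild-type males, 52.0% and 46.6% in roX knockout males and 66.8% and 94.3% in females. Beside 65A, Prdm13 was at 0% in the 4 male libraries and at 53.3% and 96.8% in females.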
